A study of Mus musculus with 33 samples.

Results

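The comparison described here sets cells that had lost their GFP signal against the unsorted population of the same culture, in a mouse embryonic stem cell line that reports on the gene Zfp42. Per the labels, the GFP sequence of this line stands in place of sequence at the start site of Zfp42, and a placeholder (dummy) guide RNA sat at the ROSA26 locus, where it could be exchanged for a library guide RNA (gRNA) that was electroporated into the cells. All populations shared this genotype and the same medium, with serum, LIF, a GSK-3 inhibitor and UO126. The members are the 4 bulk and the 4 GFP-negative libraries of the line, 8 of the 33 samples of the series, and all 3918 rows of their count table other than the placeholder: 3908 gRNAs with a position on chromosome 8 and 10 gRNAs that target GFP. The 4 GFP-medium libraries of the line entered the fits, and some of their values are printed beside the others. Only GFP-negative was tested against GFP-medium. GFP-medium against bulk was not tested. Each replicate number stands for an electroporation into that replicate of the line. Nothing in the labels says that the replicates were separate clones or cultures, so the spread between libraries may be technical. How many cells were sorted is not stated in the labels.

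Zfp42, also called Rex1, encodes a zinc finger protein and is a widely used marker of naive pluripotent cells: it is on in undifferentiated embryonic stem cells and is turned off early when they differentiate. In a screen of this kind Cas9 cuts where the gRNA directs it, and repair leaves small insertions or deletions there. Cells are then sorted by the reporter, and gRNAs are counted from their genomic DNA, so that a gRNA counted more often among GFP-negative cells than in bulk marks a position where mutation went with loss of the signal. The positive controls are gRNAs against GFP itself.

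The gRNAs spanned chr8:43180015-43365026 (mm10) in several clusters. Zfp42 lies on the minus strand at chr8:43295067-43307009, so that its annotated 5' end is at the higher coordinate and positions above it are upstream. The gene span of 11943 bp held 888 of the listed gRNAs. The RefSeq gene table of the GRCm38.p6 assembly gives gene spans only, so exons and introns were not told apart. For the description, gRNAs were sorted by the middle of their interval into the promoter (within 2 kb of the 5' end on either side), the 3' end (the last 2 kb of the gene), the middle of the gene, a downstream flank (up to 10 kb past the 3' end), a far downstream group that includes gRNAs in Triml1 and Triml2, and 4 upstream groups that end at 5, 20 and 40 kb or lie beyond.

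Which listed gRNAs were counted at all went with their first base, as the sequences around the Zfp42 start show. The RefSeq promoter windows allow the target of 94 gRNAs to be read, 56 around the Zfp42 start and 38 around that of Triml2. A PAM, the NGG that Cas9 needs beside its target, followed the target in 93 of 93 intervals (100%) when the deposited positions were moved up by 1 base, against 12.9% to 31.5% at other offsets; positions below are printed as deposited, and the bases were read 1 higher. All 45 gRNAs whose target begins with G had bulk counts, and 38 of them had counts in all 4 bulk libraries. None of the 49 that begin with A, C or T had a count in any of the 12 libraries of the line (8, 21 and 20 gRNAs). These 4 neighbouring targets near the Zfp42 start are shown because they overlap almost fully and differ in that base, in capitals here. The first and the third had 0 counts, the second had 77 counts over the 4 bulk libraries and the fourth 87.
chr8:43306975-43306997: Ttcgtccatctaaaaagggaggg
chr8:43306976-43306998: Gttcgtccatctaaaaagggagg
chr8:43306980-43307002: Cagagttcgtccatctaaaaagg
chr8:43306979-43307000: Gagttcgtccatctaaaaaggg

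Over the whole table, having counts also went with the length of the interval. Of the 716 gRNAs with an interval of 22 bp, which is a target of 19 bases and its PAM, 713 (99.6%) had counts, and of the 3192 with 23 bp, a target of 20 bases, 996 (31.2%) did. In the 2 promoter windows every target of 19 bases began with G. The targets of 20 bases there were all counted where they began with G and never where they did not. In all, 2200 of the 3918 gRNAs had no count in the 12 libraries, GFP-targeting gRNA 5 among them, and so carry no information on the comparison. The other 1718 are the gRNAs that the results rest on. Outside the 2 promoter windows no file gives the target sequences, so the base rule was not checked there. The 4 intervals that are listed more than once had no counts.

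Bulk libraries held 39096 to 82959 gRNA counts and GFP-negative libraries 252023 to 487732. Despite the larger totals, a GFP-negative library held few different gRNAs: 335, 540, 438 and 451 in replicates 1 to 4, against 1598 to 1689 in bulk. The 24 to 36 most counted gRNAs made up 50% of a GFP-negative library, and 311 to 357 did so in bulk. Bulk replicates shared 90.5% to 93.3% of the gRNAs found in either of a pair, and GFP-negative replicates 27.9% to 34.3%. A high count in 1 GFP-negative library was thus often absent from the next, and results below are given first as sums over many gRNAs. The placeholder made up 1.22% and 1.09% of all counts in bulk replicates 1 and 2 and 22.5% and 23.5% in replicates 3 and 4, so the contrast was also taken within each of these pairs of replicates. GFP-negative libraries held 0.000352% and 0.00123%, and 0.596% and 0.489%, in the same order. Counts come from PCR reads without molecular identifiers, so intervals printed below cover counting error only.

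The GFP-targeting gRNAs, the positive controls, rose most. They made up 0.574%, 0.805%, 0.645% and 0.330% of the counts in bulk replicates 1 to 4 and 21.5%, 28.2%, 27.8% and 16.1% in the GFP-negative replicates of the same numbers. The groups did not overlap: a bulk mean of 0.589% ± 0.198 (SD, n = 4) stood against 23.4% ± 5.74 (n = 4), a log2 change of 5.31 (SE 0.874, edgeR's quasi-likelihood test on region sums, adjusted p = 1.73e-04). The log2 ratio was 5.22, 5.13, 5.43 and 5.61 in the 4 pairs of same-numbered replicates. GFP-medium libraries held 0.384% ± 0.391 of such counts (n = 4), and the difference between GFP-negative and GFP-medium was 5.93 on the log2 scale (SE 0.899, edgeR, adjusted p = 8.21e-05).

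**Figure D1:**
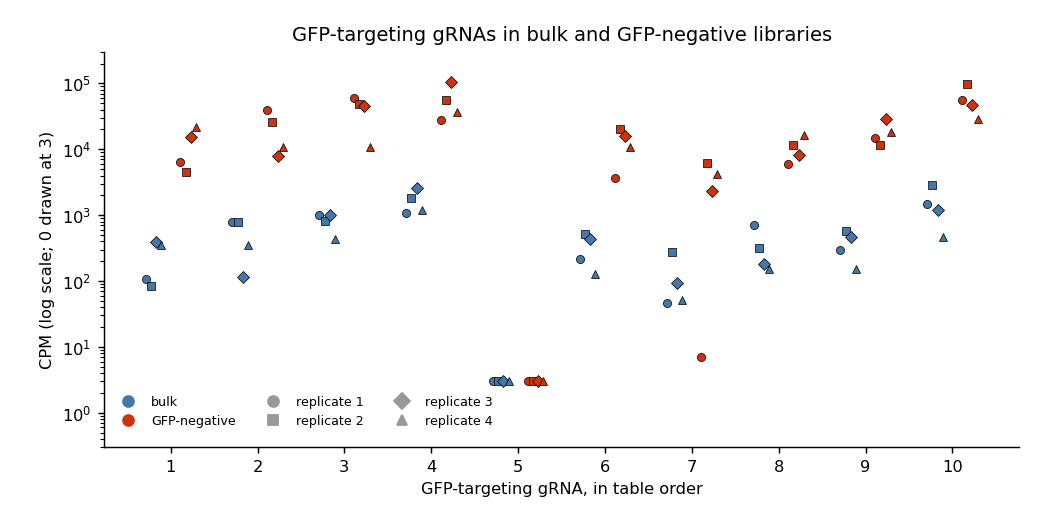
CPM (counts scaled to a library total of 1000000, log scale) of the 10 GFP-targeting gRNAs in the 4 bulk (blue) and 4 GFP-negative (red) libraries, with the marker shape giving the replicate and values of 0 drawn at 3 CPM. For 8 of the gRNAs every red point lies above every blue point, gRNA 7 has a GFP-negative value near 7 in replicate 1, and gRNA 5 has no counts.

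Singly, 9 of the 10 GFP-targeting gRNAs had counts, and all 9 were counted in all 8 libraries. In CPM (the count scaled to a library total of 1000000), GFP-targeting gRNA 3 stood at 1001, 820, 1013 and 435 in bulk replicates 1 to 4 and at 60388, 49503, 45004 and 10896 in the GFP-negative ones. Every GFP-negative value was above every bulk value, and the mean was 50.7 times as high. gRNA 10 stood at 1493, 2857, 1198 and 460 in bulk and 56634, 96330, 47829 and 29251 in GFP-negative libraries, again without overlap. gRNA 7, the least counted, stood at 46.2, 277, 92.1 and 51.2 in bulk and 7.04, 6104, 2287 and 4162 in GFP-negative libraries, so that replicate 1 went the other way. The means of the 9 gRNAs were 26.9 to 51.1 times as high in GFP-negative libraries as in bulk.

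Of 1342 gRNAs tested by edgeR, 8 (0.596%) were enriched at an adjusted p under 0.05, and all 8 were GFP-targeting: gRNAs 1, 2, 3, 4, 6, 8, 9 and 10, with log2 changes from 5.55 (SE 2.32, adjusted p = 0.0495, gRNA 8) to 6.32 (SE 1.85, adjusted p = 0.00571, gRNA 3). Leaving out single libraries gave 5.57 to 7.05 for gRNA 8 and 6.33 to 7.49 for gRNA 3. gRNA 7 had a log2 change of 5.59 and an adjusted p of 0.0778 in the same fit. With the replicate number as a block, 6 were enriched (0.447%), and gRNAs 6 and 8 had adjusted p = 0.0561 and 0.0701. DESeq2 called 12 (0.894%) and limma-voom 8 (0.596%). When a bulk library was left out, 5 passed without replicate 1, 4 without replicate 2, and 3 without replicate 3 or replicate 4; GFP-targeting gRNAs 3, 4 and 10 were called in each of these fits. Leaving out GFP-negative replicate 1, GFP-negative replicate 3 or GFP-medium replicate 1 gave 13. Every enriched gRNA that did not target GFP, in any of these fits, lay at the 3' end of Zfp42: 9 of 18 with only the 8 bulk and GFP-negative libraries, 5 of 14 with TMMwsp, 3 of 12 by DESeq2, 1 of 8 by limma-voom, 1 to 4 without a single GFP-negative or GFP-medium library, and 0 without a single bulk library or with the block. Within replicates 1 and 2 edgeR called 0 enriched (2 at an unadjusted p under 0.05), and within replicates 3 and 4 it called 5. Depletion was the broader change, with 598 of 1342 (44.6%) called lower, 743 (55.4%) with the replicate block, 627 (46.7%) by DESeq2 and 268 (20%) by limma-voom. Of the 598, 451 (75.4%) were at 0 in all 4 GFP-negative libraries, and these 451 were all the tested gRNAs at 0 there. A GFP-negative library held only 335 to 540 different gRNAs. Whether a 0 came from such sparse sampling or from loss of that gRNA was not tested. The calls are also relative to the scaling. Over all 1342 gRNAs the median log2 change was -4.06 with TMM and ranged from -2.27 with TMMwsp to -5.36 with DESeq2's size factors.

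**Figure D2:**
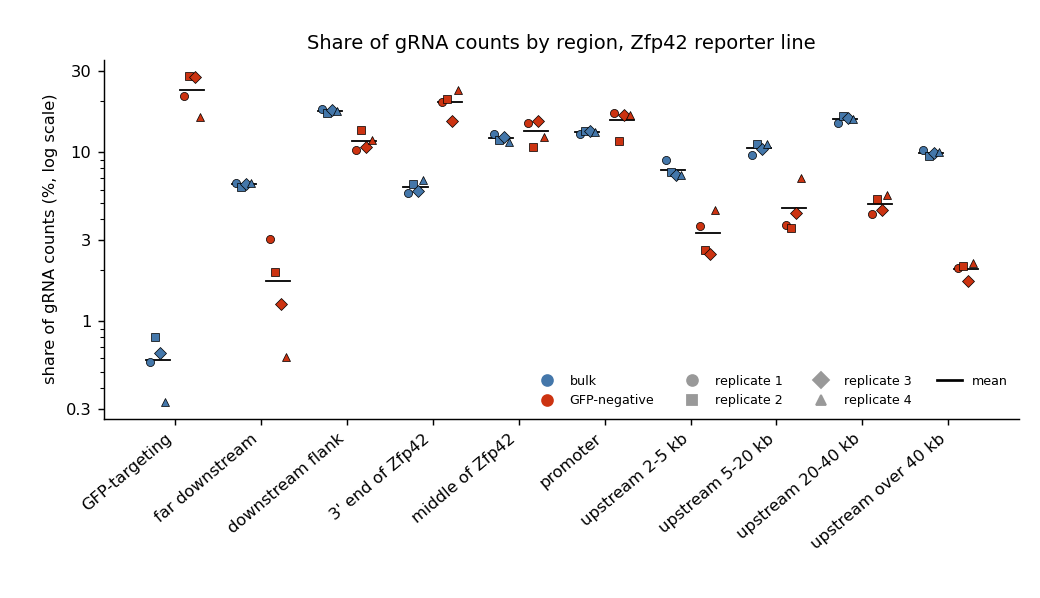
Share of all gRNA counts of a library (percent, log scale) taken by each region, ordered from far downstream to far upstream after the GFP-targeting gRNAs, in bulk (blue) and GFP-negative (red) libraries; marker shapes are replicates and black lines are means of 4 libraries. The red points of the 3' end, 15.3% to 23.4%, lie above the blue points, those of the promoter and the middle of the gene overlap the blue ones, and those of all other chromosome 8 regions lie below.

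Among gRNAs on chromosome 8, those at the 3' end of Zfp42, in the last 2 kb of the gene, rose. The 217 listed gRNAs there, 85 of them with counts, made up 5.69%, 6.45%, 5.88% and 6.80% of bulk replicates 1 to 4 and 19.7%, 20.5%, 15.3% and 23.4% of the GFP-negative ones. The groups did not overlap, and the mean went from 6.20% ± 0.511 (SD, n = 4) to 19.7% ± 3.37 (n = 4), a log2 change of 1.67 (SE 0.151, edgeR, adjusted p = 9.77e-07). It was 1.73 within replicates 1 and 2 (adjusted p = 3.78e-04) and 1.61 within replicates 3 and 4 (adjusted p = 4.19e-04). A 2-sided exact permutation test of the shares gave p = 0.0286, the smallest that 4 libraries against 4 allow (0.0357 adjusted over the 10 regions). That test takes no account of the replicate numbers, and swapping bulk with GFP-negative only within the 4 pairs cannot give a p below 0.125. GFP-medium libraries held 6.25% ± 0.648 in this region, near the bulk level, and the difference between GFP-negative and GFP-medium was 1.66 on the log2 scale (SE 0.151, edgeR, adjusted p = 2.08e-06). Without the GFP-targeting gRNAs in the denominator the region rose from 6.24% ± 0.509 to 25.6% ± 3.38 of the chromosome 8 counts. The limits of this and the other regions were chosen with earlier results of these data known. The p-values of the regions are therefore not those of windows set in advance.

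The gRNAs at the 3' end also recurred across replicates. Of the 1463 gRNAs counted in all 4 bulk libraries, 95 (6.49%) were counted in all 4 GFP-negative libraries and 555 (37.9%) in none. At the 3' end the numbers were 30 of 83 (36.1%) and 6 of 83 (7.23%). In the promoter 29 of 174 (16.7%) were in all 4, in the middle of the gene 15 of 156 (9.62%) and in the downstream flank 9 of 217 (4.15%). Far downstream, between 2 and 5 kb upstream and beyond 40 kb upstream none of 86, 116 and 207 were. Of the 86 such gRNAs on chromosome 8, 30 lay at the 3' end, and of the 10 with the highest mean CPM in GFP-negative libraries 8 did.

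**Figure D3:**
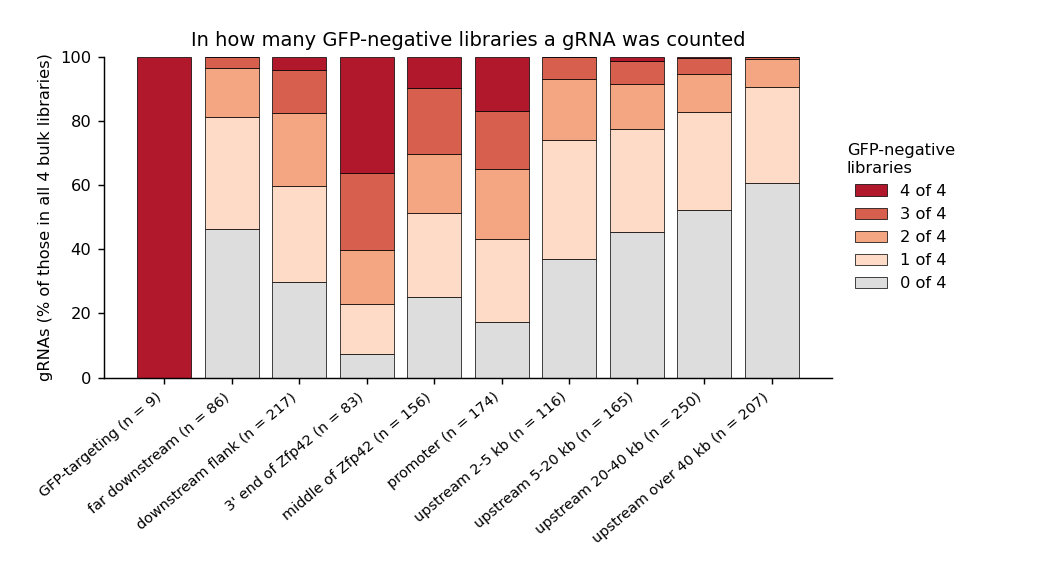
Share of gRNAs (percent of those counted in all 4 bulk libraries, n under each bar) that were counted in 0, 1, 2, 3 or 4 of the 4 GFP-negative libraries, by region. Dark red, counted in all 4, fills the bar of the GFP-targeting gRNAs and 36.1% of the bar of the 3' end, and gray, counted in none, grows to 60.9% beyond 40 kb upstream.

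Within the 3' end the change was uneven. Of 43 tiles of 1 kb tested, 3 (6.98%) rose and 7 (16.3%) fell in edgeR, and 2 of the 3 lay here. The tile chr8:43296000-43296999, 10.5 kb downstream of the 5' end and with 51 gRNAs counted in bulk, held 3.26%, 3.75%, 3.51% and 3.93% of bulk counts and 13.4%, 13.9%, 11.3% and 16.8% of GFP-negative counts in replicates 1 to 4. Its groups lay far apart, with a log2 change of 1.94 (SE 0.179, adjusted p = 1.52e-07), 1.96 within replicates 1 and 2 and 1.92 within replicates 3 and 4. The tile chr8:43295000-43295999, which contains the annotated end of the gene, went from 2.65% ± 0.228 to 5.96% ± 1.34 (n = 4 each), a log2 change of 1.17 (SE 0.291, edgeR, adjusted p = 0.00524). It was 1.31 within replicates 1 and 2 and 1.02 within replicates 3 and 4, with adjusted p = 0.0640 and 0.136. The next tile inside the gene, chr8:43297000-43297999, lies mostly past the limit of the 3' end region. It went from 0.839% ± 0.0689 to 1.91% ± 0.969 (n = 4 each), a log2 ratio of means of 1.19. Replicate 2 went the other way (-0.33), the groups overlapped, and this tile was not among the 3 that rose. The tile just past the gene, chr8:43294000-43294999, did not pass the test: it held 4.46% ± 0.0983 of bulk and 4.82% ± 0.839 of GFP-negative counts (n = 4 each, log2 change 0.11, edgeR, adjusted p = 0.675). That depended on the scaling: it rose by 1.09 with TMM over tiles (edgeR, adjusted p = 0.00473) and by 0.92 with DESeq2 (adjusted p = 0.00827), and stood at 0.50 without the GFP-targeting gRNAs in the total (edgeR, adjusted p = 0.147).

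In steps of 200 bp, the share peaked at chr8:43296400-43296599. This step held 0.636%, 0.882%, 0.744% and 0.801% of counts in bulk replicates 1 to 4 and 5.27%, 5.85%, 4.01% and 5.89% in the GFP-negative ones. The 2 steps before it held 2.38% ± 0.735 and 2.69% ± 0.763 of GFP-negative counts, against 0.973% ± 0.225 and 1.11% ± 0.0655 of bulk. The 2 steps after it held 2.40% ± 1.66 and 1.12% ± 0.460, against 0.381% ± 0.109 and 0.382% ± 0.0454. In each of these 5 steps all GFP-negative libraries were above all bulk libraries. These steps are a description and were not tested.

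**Figure D4:**
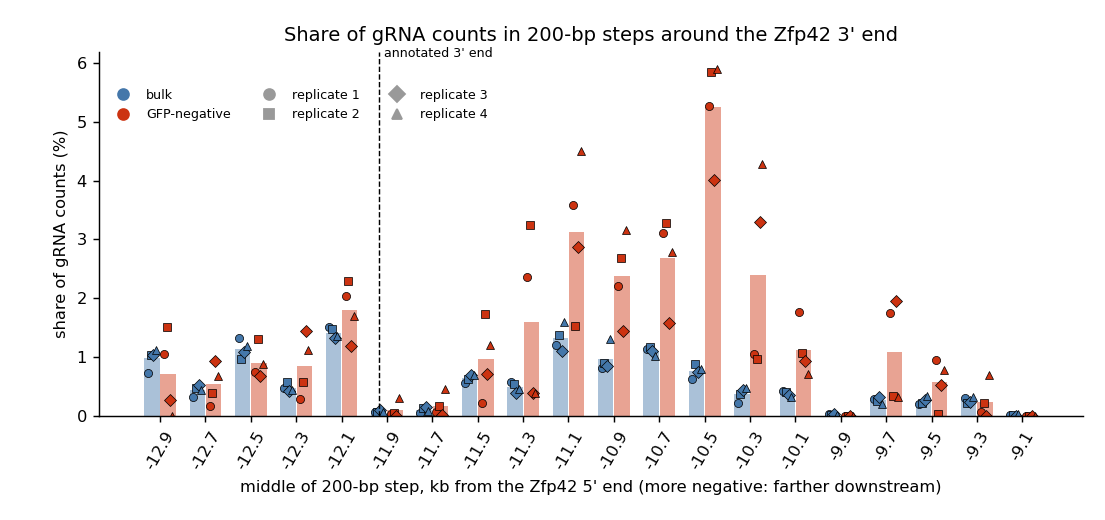
Share of gRNA counts (percent) in 200-bp steps around the 3' end of Zfp42, by distance of the step's middle from the 5' end in kb; bars are means of 4 bulk (blue) or 4 GFP-negative (red) libraries, points are libraries with the marker shape giving the replicate, and the dashed line is the annotated end of the gene. The tallest red bar, 5.26% on average against 0.766% in bulk, is about 10.5 kb downstream of the 5' end, inside the gene.

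Of the 1718 gRNAs with bulk counts, 16 (0.931%) were above every bulk library in all 4 GFP-negative libraries: 8 GFP-targeting ones, 7 at the 3' end of Zfp42 (of 85 with bulk counts, 8.24%) and 1 in the promoter. The most counted on chromosome 8 was chr8:43296492-43296513, which stood at 1524, 1013, 668 and 1074 CPM in bulk replicates 1 to 4 and 14638, 7707, 11625 and 20085 CPM in the GFP-negative ones. Its GFP-negative mean of 13514 ± 5220 CPM was 12.6 times the bulk mean of 1070 ± 352 (SD, n = 4 each). It missed the threshold in edgeR (log2 change 4.10, SE 1.95, adjusted p = 0.0898) and passed it in DESeq2 (adjusted p = 0.00810) and limma-voom (adjusted p = 0.0485). With the replicate block its adjusted p in edgeR was 0.121. In edgeR it passed with only the 8 bulk and GFP-negative libraries (adjusted p = 0.00132), with TMMwsp (0.0328), without GFP-negative replicate 1, 2 or 3 (0.0437, 0.0465 and 0.0458) and without any 1 GFP-medium library (0.0221 to 0.0376). Leaving out single libraries moved its log2 change between 4.12 and 5.14.

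The gRNA chr8:43296507-43296529 stood at 816, 880, 161 and 409 CPM in bulk and at 13135, 14202, 2884 and 1920 CPM in GFP-negative libraries, with adjusted p = 0.0959 by edgeR and 0.0424 by DESeq2. The gRNA chr8:43296492-43296514 stood at 816, 820, 875 and 307 CPM in bulk and at 14402, 6114, 3362 and 7876 CPM in GFP-negative libraries, with adjusted p = 0.126 by edgeR. Its GFP-negative values all exceeded its bulk values, and the difference was not past the test in that fit. With chr8:43296493-43296515, chosen after its values were seen (600 ± 332 CPM in bulk, 6272 ± 4689 in GFP-negative libraries, n = 4 each), these 4 intervals overlap within 38 bp. chr8:43296492-43296513, chr8:43296492-43296514 and chr8:43296493-43296515 nearly coincide, and chr8:43296507-43296529 overlaps them only in part. Their target sequences could not be read. As overlapping intervals, the 4 are not taken as independent sites. With only the 8 bulk and GFP-negative libraries in the fit, chr8:43296507-43296529, chr8:43296492-43296514 and chr8:43296493-43296515 passed too (edgeR, adjusted p = 0.0128, 0.00691 and 0.0145). Together the 4 overlapping gRNAs made up 3.58% ± 1.14 of GFP-negative and 0.294% ± 0.0910 of bulk counts (n = 4 each). The 200-bp step that holds them, the peak above, had 5.26% and 0.766% on average, so most of the peak came from these 38 bp.

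The other 3 gRNAs of the 3' end that were above every bulk library, named after their values were seen, lay nearer the annotated end of the gene and had means 4.72 to 6.00 times as high as in bulk: chr8:43295882-43295904, chr8:43296116-43296138 and chr8:43295868-43295889. None of the 3 passed the test with all 12 libraries in the fit (edgeR, adjusted p = 0.260, 0.330 and 0.315), and all 3 passed it with only the 8 bulk and GFP-negative libraries (edgeR, adjusted p = 0.0197, 0.0463 and 0.0417). The region's rise did not rest on its 3 most counted gRNAs alone: without the 3 with most counts over the 8 libraries the log2 change was 1.53 (SE 0.158, edgeR, adjusted p = 3.91e-06). The 4 overlapping gRNAs were not left out as a set. Of the 80 gRNAs of the 3' end that were tested singly, 62 had a fitted change above 0, against 360 of all 1342, and their median change was 1.70 against -4.06. edgeR called 0 of the 80 enriched (2 at an unadjusted p under 0.05) and 6 depleted, DESeq2 3 and 9, and limma-voom 1 and 2. The 6 depleted were 7.5% of the 80. Over all 1342 the depleted share was 44.6% by edgeR, 46.7% by DESeq2 and 20% by limma-voom.

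The promoter of Zfp42 did not pass the test. Its 453 listed gRNAs, 196 of them with counts, made up 12.8%, 13.2%, 13.4% and 13.2% of bulk replicates 1 to 4 and 17.0%, 11.7%, 16.6% and 16.5% of the GFP-negative ones. Replicates 1, 3 and 4 were above all bulk libraries and replicate 2 below them. The means were 13.2% ± 0.245 and 15.5% ± 2.53 (n = 4 each), with a log2 change of 0.23 (SE 0.132, edgeR, adjusted p = 0.117; exact permutation p = 0.143, 2-sided, adjusted 0.159). Without GFP-negative replicate 2 it was 0.35 (adjusted p = 0.00166). The call depended on the scaling. With TMM over regions the change was 0.69 (adjusted p = 9.18e-04), and without the GFP-targeting gRNAs in the total it was 0.61 (adjusted p = 6.69e-04), with 13.3% ± 0.253 of chromosome 8 counts in bulk and 20.2% ± 2.94 in GFP-negative libraries and no overlap. Against GFP-medium, where the promoter held 21.9% ± 1.10, the GFP-negative share was lower by 0.50 on the log2 scale (SE 0.132, edgeR, adjusted p = 0.00460).

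Within and beside the promoter window the tiles differed in their values. The tile chr8:43305000-43305999, which lies inside the gene 1.5 kb downstream of the 5' end and so almost wholly in the promoter window, was the third tile that rose. It held 4.04%, 4.41%, 4.33% and 4.18% of bulk counts and 6.63%, 6.02%, 6.94% and 6.16% of GFP-negative counts in replicates 1 to 4, without overlap (log2 change 0.60, SE 0.175, edgeR, adjusted p = 0.0147). It missed the threshold without bulk replicate 1 (adjusted p = 0.0551) or without bulk replicate 4 (adjusted p = 0.0517), and within replicates 1 and 2 or 3 and 4 (0.58 and 0.62, adjusted p = 0.207 and 0.177). The next tile towards the 5' end, chr8:43306000-43306999, held 2.59%, 2.90%, 3.06% and 3.05% of bulk counts and 4.32%, 3.37%, 3.20% and 4.33% of GFP-negative counts. Its groups did not overlap, and it missed the threshold (log2 change 0.39, SE 0.196, edgeR, adjusted p = 0.129). It passed without the GFP-targeting gRNAs in the total (0.76, edgeR, adjusted p = 0.00749), with TMM over tiles (1.34, edgeR, adjusted p = 1.76e-04) and with DESeq2 (1.17, adjusted p = 3.79e-06). The tile with the 5' end, chr8:43307000-43307999, held 3.23% ± 0.0817 of bulk and 3.22% ± 1.20 of GFP-negative counts (n = 4 each, edgeR, adjusted p = 0.991). The tile above it, chr8:43308000-43308999, held 2.81% ± 0.111 and 2.02% ± 1.33 (n = 4 each, edgeR, adjusted p = 0.488).

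The RefSeq sequence just upstream of the Zfp42 start is shown to place the gRNAs that could be read there. It covers chr8:43307010-43307259 of GRCm38.p6 on the minus strand, 5' to 3', and its last base adjoins the annotated start. Capitals mark an octamer, ATTTGCAT, the sequence recognised by POU factors such as Oct4, and a match is a description, not a binding site.
Zfp42 upstream: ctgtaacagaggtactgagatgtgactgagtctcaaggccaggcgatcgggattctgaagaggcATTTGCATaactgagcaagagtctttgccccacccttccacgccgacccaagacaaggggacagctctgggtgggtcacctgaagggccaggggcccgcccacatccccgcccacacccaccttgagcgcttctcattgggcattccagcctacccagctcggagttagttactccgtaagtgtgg
The octamer stood at -186 to -179 from the start and was found, on either strand, in 1.60% of 32851 RefSeq promoters over the same 250 bases. No listed gRNA interval covered it. The window also holds GGGCGG, the GC box, at 2 places (32.7% of promoters have it on either strand) and CCACCC at 2 places (28.1%).

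Of the 56 readable gRNAs around the Zfp42 start, 33 begin with G. They fell into 3 stretches parted by gaps without such gRNAs, a division made after the values were seen and not tested. The 8 from 27 bp inside the gene to 35 bp upstream held 0.566% ± 0.0959 of bulk and 0.934% ± 0.337 of GFP-negative counts, and 6 of them were counted in 3 or 4 GFP-negative libraries. The 20 from 55 to 148 bp upstream, over the GC boxes, held 0.601% ± 0.0732 of bulk counts and 0.0690%, 0.0154%, 0.190% and 0.187% of GFP-negative counts in replicates 1 to 4. All 4 values were below every bulk library, 12 of the 20 gRNAs had no GFP-negative count, and none was in 3 or more GFP-negative libraries. Some of the 12 were sparse in bulk too: chr8:43307077-43307099 had 1 bulk count and chr8:43307074-43307096 had 12. Among gRNAs counted in all 4 bulk libraries, 17.2% in the promoter and 37.9% over the whole table had no GFP-negative count. The 5 from 198 to 223 bp upstream, next to the octamer, held 0.225%, 0.233%, 0.368% and 0.207% of bulk counts and 0.260%, 0.235%, 3.22% and 0.475% of GFP-negative counts. All 5 were counted in 3 or 4 GFP-negative libraries, and GFP-negative replicate 3 was the highest by far.

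The first 4 readable targets below were counted in all 4 GFP-negative libraries, and the last, over a GC box, had 153 bulk counts and 0 GFP-negative counts. It had 2972 counts over the 12 libraries of the line, most of them thus in GFP-medium libraries. Capitals mark the PAM.
chr8:43307221-43307242: gagatgtgactgagtctcaAGG
chr8:43307209-43307231: gagtctcaaggccaggcgatCGG
chr8:43307032-43307054: gcattccagcctacccagctCGG
chr8:43306979-43307000: gagttcgtccatctaaaaaGGG
chr8:43307094-43307116: gggcgggcccctggcccttcAGG
The first stood at 277, 627, 852 and 614 CPM in bulk replicates 1 to 4 and at 2358, 984, 687 and 480 CPM in the GFP-negative ones, so the groups overlapped (edgeR, adjusted p = 0.624). The second went from 521 ± 130 to 635 ± 473 CPM, the third from 1400 ± 330 to 1005 ± 1156 and the fourth from 490 ± 429 to 1669 ± 1874 (SD, n = 4 each, bulk and GFP-negative), and none passed the test (edgeR, adjusted p = 0.839, 0.952 and 0.503). The promoter gRNA that was above every bulk library in all 4 GFP-negative libraries, chr8:43306951-43306972, lies 47 bp inside the gene. It stood at 785, 687, 368 and 409 CPM in bulk and 841, 2768, 1106 and 4968 CPM in GFP-negative libraries, and missed the threshold (log2 change 2.72, SE 1.91, edgeR, adjusted p = 0.294).

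The middle of the gene gave no call either. Its share was 12.8%, 11.8%, 12.3% and 11.5% in bulk replicates 1 to 4 and 14.8%, 10.7%, 15.2% and 12.3% in GFP-negative ones, with overlapping groups. The log2 change was 0.13 (SE 0.220, edgeR, adjusted p = 0.558; exact permutation p = 0.343, 2-sided). It became 0.60 (adjusted p = 0.0223) with TMM over regions and 0.51 (adjusted p = 0.0386) without the GFP-targeting gRNAs in the total. Of its 153 tested gRNAs edgeR called 0 enriched (0 at an unadjusted p under 0.05, and 0 by DESeq2 and limma-voom). It called 44 (28.8%) depleted, a lower share than the 44.6% of all 1342 tested gRNAs.

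**Figure D5:**
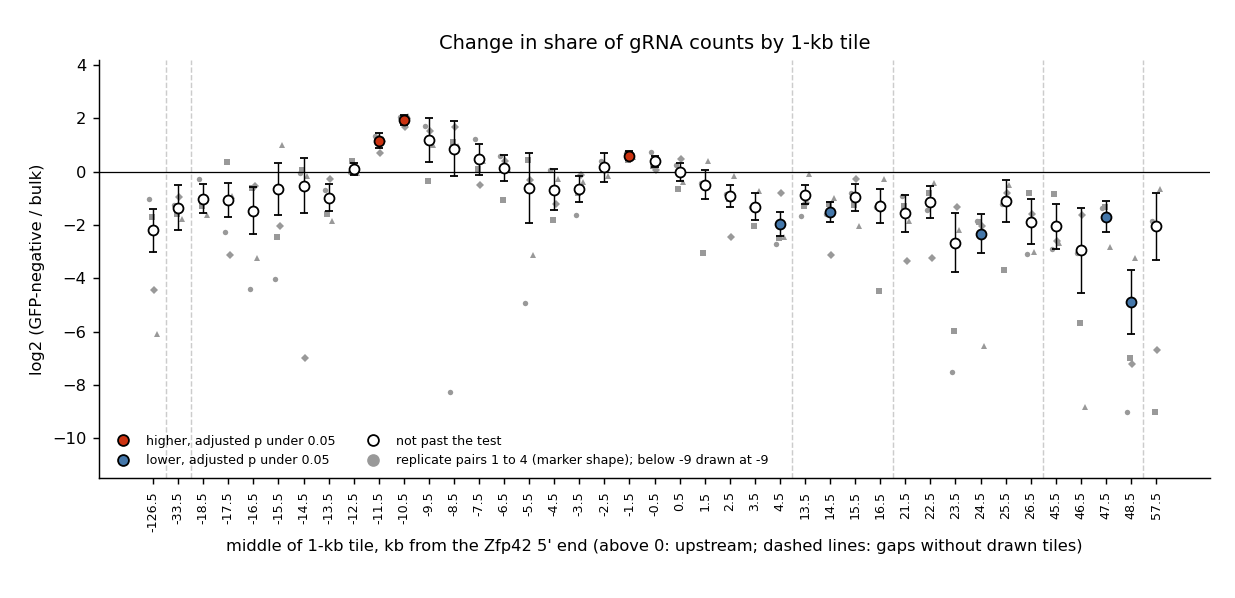
Change in the share of gRNA counts, log2 of GFP-negative over bulk, in the 41 tiles of 1 kb with at least 10 gRNAs counted in bulk, by distance of the tile's middle from the 5' end of Zfp42 in kb. Large circles are edgeR estimates with SE, red or blue past the test, small gray marks are the 4 replicate pairs, and the values go from 1.94 at 10.5 kb downstream to -4.87 at 48.5 kb upstream.

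Upstream of the promoter every group of gRNAs fell. Between 2 and 5 kb upstream the share was 8.98%, 7.58%, 7.31% and 7.34% in bulk replicates 1 to 4 and 3.65%, 2.63%, 2.47% and 4.55% in GFP-negative ones, without overlap (log2 change -1.23, SE 0.213, edgeR, adjusted p = 2.18e-04). From 5 to 20 kb it went from 10.6% ± 0.710 to 4.65% ± 1.59 (-1.19, SE 0.254, edgeR, adjusted p = 0.00104), from 20 to 40 kb from 15.7% ± 0.615 to 4.92% ± 0.601 (-1.67, SE 0.252, edgeR, adjusted p = 1.04e-04), and beyond 40 kb from 9.92% ± 0.350 to 2.03% ± 0.216 (-2.29, SE 0.167, edgeR, adjusted p = 1.96e-07; n = 4 each). In all 4 groups the bulk and GFP-negative libraries did not overlap, and all 4 calls held within each pair of replicates. The first 2 of these groups differed from GFP-medium as well as from bulk: GFP-negative stood below GFP-medium by 2.20 (SE 0.220, edgeR, adjusted p = 2.74e-06) and 2.28 (SE 0.263, adjusted p = 7.90e-06) on the log2 scale. GFP-medium libraries held 15.2% ± 3.12 and 22.5% ± 7.28 there, above the bulk level. From 20 to 40 kb the difference from GFP-medium was -0.40 (SE 0.246, edgeR, adjusted p = 0.166), and beyond 40 kb it was -0.78 (SE 0.160, adjusted p = 8.71e-04).

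The downstream groups fell too. The far downstream share went from 6.54%, 6.23%, 6.44% and 6.54% in bulk replicates 1 to 4 to 3.05%, 1.96%, 1.26% and 0.614% in GFP-negative ones (log2 change -1.90, SE 0.488, edgeR, adjusted p = 0.00331). The drop was -1.35 within replicates 1 and 2 and -2.79 within replicates 3 and 4 (adjusted p = 0.0125 and 4.19e-04). The downstream flank went from 17.6% ± 0.386 to 11.6% ± 1.38 (-0.60, SE 0.193, edgeR, adjusted p = 0.0117) without overlap. This call depended on the total used: without the GFP-targeting gRNAs the change was -0.22 (adjusted p = 0.284), and with TMM over regions -0.14 (adjusted p = 0.489). It also missed the threshold within replicates 1 and 2 (-0.56, adjusted p = 0.137) and within replicates 3 and 4 (-0.65, adjusted p = 0.0893).

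By tile, all 26 tested tiles that lay wholly outside the gene and 2 kb on either side had a lower mean share in GFP-negative than in bulk libraries, and in 22 of them the groups did not overlap. Over all 43 tested tiles 33 had a lower mean share, and without overlap 25 were lower and 4 higher. Of the 7 tiles that edgeR called lower, 5 had at least 20 gRNAs counted in bulk. With the replicate block 20 of the 43 tiles (46.5%) were lower and 3 (6.98%) higher. The largest drop among well filled tiles was at chr8:43355000-43355999, 48.5 kb upstream, where 33 gRNAs made up 1.65%, 2.05%, 1.81% and 2.16% of bulk counts and 0.00176%, 0.0162%, 0.0122% and 0.232% of GFP-negative counts (log2 change -4.87, SE 1.20, edgeR, adjusted p = 0.00524). Within replicates 3 and 4 it was -4.02 (edgeR, adjusted p = 0.0783). The size depended on GFP-negative replicate 4: without that library the change was -7.55 (edgeR, adjusted p = 5.28e-05), the others left out singly gave -4.94 to -4.47, and the block gave -6.45 (edgeR, adjusted p = 2.17e-04). The tile chr8:43274000-43274999, with 3 gRNAs counted in bulk, had 122 bulk counts and 1 GFP-negative count, a share 676 times lower (exact 95% interval 119 to 26923, counting error only). The tile chr8:43365000-43365999, with 1 such gRNA, had 114 and 0 counts and was at least 211-fold lower, against 3 counts over the 4 GFP-negative libraries.

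Among gRNAs called lower that still had a GFP-negative count, the 3 with the largest fitted decreases had 1 count each. The gRNA chr8:43323677-43323698, 16.7 kb upstream, stood at 1986, 2302, 668 and 1432 CPM in bulk and had 1 count in GFP-negative replicate 1 and 0 in the others, against 405 bulk counts. Its share over the 4 libraries was 2245 times lower (exact 95% interval 401 to 88874, counting error only; edgeR, adjusted p = 0.0105). chr8:43321432-43321453 (334 bulk counts) and chr8:43180052-43180074 (319 bulk counts) likewise had 1 count, in GFP-negative replicate 1 (edgeR, adjusted p = 0.00728 and 0.0133). limma-voom called none of the 3 (adjusted p = 0.104, 0.150 and 0.0574). Of the gRNAs called lower with 0 counts in all 4 GFP-negative libraries, the 3 with the highest bulk mean CPM, named after their values were seen, were chr8:43293106-43293127 and chr8:43290403-43290424 in the downstream flank and chr8:43310703-43310724 between 2 and 5 kb upstream. They had 586, 555 and 555 bulk counts and were at least 1083-fold, 1025-fold and 1025-fold lower, against 3 counts over the 4 GFP-negative libraries (edgeR, adjusted p = 0.00635, 0.00506 and 0.00547).

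The study followed up 2 gRNA sites of the Zfp42 line by deep sequencing, both inside the cluster between 5 and 20 kb upstream where the summed share fell. The gRNA chr8:43320710-43320732 stood at 539, 711, 622 and 742 CPM in bulk replicates 1 to 4 and at 0, 2713, 1209 and 2270 CPM in the GFP-negative ones: above bulk in 3 replicates and absent from the other (log2 change 2.04, SE 1.83, edgeR, adjusted p = 0.439). The gRNA chr8:43320826-43320847 stood at 785, 856, 576 and 716 CPM in bulk and at 3568, 7416, 3.95 and 3.97 CPM in GFP-negative libraries (log2 change 2.93, SE 2.09, edgeR, adjusted p = 0.302). It was high in replicates 1 and 2 and at 1 count each in replicates 3 and 4, and with replicates 3 and 4 only the change was -6.80 (adjusted p = 0.0431). GFP-medium libraries held 5353 to 31342 CPM of the first and 4579 to 9345 CPM of the second, above the bulk values in all 4 replicates. The tile with both sites, chr8:43320000-43320999, held 2.57% ± 0.278 of bulk and 1.41% ± 0.897 of GFP-negative counts (n = 4 each, log2 change -0.86, edgeR, adjusted p = 0.0780; with the replicate block 0.0192).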

How the data were processed

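Per the labels, genomic DNA of bulk and sorted cells was turned into libraries by PCR, and the authors deposited whole-number counts per gRNA and library, taken here as raw counts. Positions are in mm10, per the submitters' processing notes; neither labels nor headers name the counting program. Same-numbered bulk and GFP-negative libraries deviated together (r = 0.116 to 0.157 in 4 pairs, -0.0685 to -0.0239 in the 12 others). Each population was first centred on its own mean, which pushes the 12 other values below 0 when the 4 are above it. The numbers were taken to pair samples. The reported fits held the population only and did not use the pairs, and blocked values are printed where they change a call.

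Single gRNAs with enough counts (edgeR 4.0.16 filterByExpr, minimum count 10) were tested with TMM scaling and the robust quasi-likelihood test. Sums over 1-kb tiles (at least 5 listed gRNAs) and 10 regions were tested with library totals. All 12 libraries of the line entered each fit, 2-sided, with Benjamini-Hochberg adjustment at 0.05. Fits were also run on counts simulated around bulk means with the same spread in every library. That setting does not copy the sparse GFP-negative libraries, so no result here rests on it. Alternatives used DESeq2 1.42.0 and limma 3.58.1 (R 4.3.3). Plots used matplotlib 3.10.9.

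Named gRNAs were all GFP-targeting ones, any past the test upward, up to 3 per region among those above every bulk library in all GFP-negative libraries, the 3 largest decreases past the test (gRNAs at 0 in all GFP-negative libraries ranked by a bound of 3 counts per library), and the deep-sequenced sites; named tiles were those that rose and the 3 largest decreases. Members, regions and lists were chosen with earlier results of these data known. The text list of deep-sequenced positions was used only for positions, and 0 sample columns lay outside the series. Targets and the upstream sequence are from RefSeq (GRCm38.p6). The deep-sequencing reads and the other lines were not analysed here.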

Additional observations from a re-analysis of the deposited data

Results flagged for a closer look

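In 8 of 94 groups of 4 libraries, 1 library lay apart from the other 3 by more than Dixon's 95% value. The 94 include groups at 0 in all 4 libraries, which cannot be flagged. A group with 1 count in 1 library and 0 in the others is always flagged. The 8 were therefore not set against a rate by chance. GFP-negative replicate 2 held 11.7% of its counts in the promoter, against 16.5% to 17.0% in the other 3. Bulk replicate 1 held 8.98% between 2 and 5 kb upstream, against 7.31% to 7.58%. The tile chr8:43274000-43274999 held 0.000205% in GFP-negative replicate 2, which is 1 count, and 0 in the others. The tile chr8:43355000-43355999 held 0.232% in GFP-negative replicate 4, against 0.00176% to 0.0162%. The gRNA chr8:43296492-43296514 stood at 307 CPM in bulk replicate 4, against 816 to 875. The gRNAs chr8:43323677-43323698, chr8:43321432-43321453 and chr8:43180052-43180074 each stood at 3.52 CPM in GFP-negative replicate 1, which is 1 count, and at 0 in the others.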

How the results depend on the processing

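Counts of enriched gRNAs, 8 in the reported fit, were 14 with TMMwsp, 18 with only the 8 bulk and GFP-negative libraries, 0 within replicates 1 and 2 (2 at an unadjusted p under 0.05; edgeR), 5 within replicates 3 and 4, and 3 to 13 when single libraries were left out. Depleted gRNAs, 598, were 268 with limma-voom, 944 with no filter beyond 1 count and 600 to 792 without single libraries. Tiles that rose, 3, were 5 with TMM, 6 with DESeq2, 1 within replicates 1 and 2, 1 within replicates 3 and 4, and 2 to 4 without single libraries. Tiles that fell, 7, were 3 with TMM, 0 with DESeq2 (4 at an unadjusted p under 0.05), 11 with 2-kb tiles, 12 with only the 8 libraries, 20 with the replicate block, 3 within replicates 3 and 4, and 6 to 10 without single libraries.

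The downstream flank lost its call with TMM over regions (-0.14), without GFP-targeting gRNAs (-0.22), within replicates 1 and 2 (-0.56) and within replicates 3 and 4 (-0.65). The middle of the gene gained a call with TMM (0.60) and without GFP-targeting gRNAs (0.51) and was -0.026 without its 3 most counted gRNAs. The promoter gained a call with TMM (0.69), without GFP-targeting gRNAs (0.61) and without GFP-negative replicate 2; leaving out single libraries gave 0.18 to 0.35. The deep-sequenced gRNA chr8:43320826-43320847 reversed to -6.80 with replicates 3 and 4 only. The causes were not tested. The other 7 regions kept direction and call under all alternatives run, with the replicate block included, which changed no region's call.

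Depth limits single gRNAs: the number of cells behind a GFP-negative library is not known, and reads cannot show it. Shares within a library show unequal change only.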
